A study of Mus musculus with 149 samples.

Results

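The genes Chil3, Chil4, Mmp12, Mrc1, Alox15 and Cdh1, markers of alternatively activated macrophages, were followed across the lungs of naive and sensitized mice. They were taken by name: for each gene, the probe sets whose platform annotation names that gene alone were used. Each of the 6 had 1 such probe set, so the 6 stand for 6 of the 13494 genes measured. Each array (Affymetrix) holds the RNA of 1 animal's whole lung, and all animals were BALB/c mice. The study asked how a challenge with thymic stromal lymphopoietin (TSLP), an epithelial cytokine that acts on dendritic and other cells, affects airway inflammation. Mice were either naive (73 arrays) or sensitized to ovalbumin (OVA, 76 arrays). Each received saline, 0.1% MSA (the buffer that carried the cytokine), or 150, 500 or 1500 ng TSLP, and the lung was taken 6 or 24 h later. These choices give 20 groups: 12 of 8 arrays, 5 of 7 and 3 of 6. Other animals of the design were not analysed here, and the labels used here give neither the age nor the sex of the mice. No group carries an engineered allele, and whether the OVA mice met OVA again in the airway is not given in the sources used here.

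Macrophages exposed to interleukin-4 or interleukin-13 take on a programme called alternative activation, which runs through the shared receptor chain Il4ra and the transcription factor Stat6. Its mouse markers include secreted chitinase-like proteins, a mannose-binding receptor, a lipoxygenase and, unusually for a macrophage, E-cadherin. In allergic lungs the programme accompanies eosinophils and mucus-producing goblet cells. None of the 6 genes belongs to macrophages alone: airway epithelium can make Chil4, eosinophils can hold Alox15, some endothelium carries Mrc1, and Cdh1 is the main cadherin of lung epithelium. In whole tissue, fewer cells of a type and less RNA per cell cannot be told apart.

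Chil3 and Chil4 are neighbouring copies on chromosome 3. Their upstream sequence is shown because both genes were higher in OVA than in naive mice in every comparison that follows. Both are read from the minus strand of GRCm38.p6. In RefSeq's table of promoter windows, from 250 bases before each start to 50 after, 4 of the 6 genes matched (Chil3, Chil4, Mmp12 with 2 starts, and Mrc1); Alox15 and Cdh1 are named only. The stretch from 250 to 51 bases before each start is given 5′ to 3′, at chr3:106167615-106167814 for Chil3 and chr3:106219530-106219729 for Chil4. Capitals mark the match to TTCNNNGAA, a pattern bound by STAT factors.
Chil3: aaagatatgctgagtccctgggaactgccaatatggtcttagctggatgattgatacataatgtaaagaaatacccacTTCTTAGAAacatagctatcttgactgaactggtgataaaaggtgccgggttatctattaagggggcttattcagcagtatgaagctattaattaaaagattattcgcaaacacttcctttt
Chil4: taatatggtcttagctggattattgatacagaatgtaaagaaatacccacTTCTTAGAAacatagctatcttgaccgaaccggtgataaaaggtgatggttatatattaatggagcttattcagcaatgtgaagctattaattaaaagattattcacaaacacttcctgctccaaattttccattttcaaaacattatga
Both matches read TTCTTAGAA and start 172 bases (Chil3) and 200 bases (Chil4) before the start site. The 2 stretches aligned over 168 columns, of which 155 (92.3%) were identical. TTCNNNGAA occurs in 8.3% of the 32851 promoter windows of the table. The STAT6 form of the pattern, with 1 more base between its arms, occurs in 6.95% of windows and in none of the 4 genes' windows. TGANTCA, the AP-1 pattern, occurs in 7.81% and was found in the window of the later start of Mmp12, as TGAGTCA. Each pattern is its own reverse complement, so 1 search covered both strands, and no match overlapped another. The window of Mrc1 held none of the 3. A match describes letters and is not evidence of binding.

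The arrays passed most checks, with 8 exceptions. Array medians lay between 8.97 and 9.16 on the log2 scale, and the surfactant genes and other alveolar type 2 markers were near the top of the scale in every group (list mean 13.58 to 13.67). Ighm, the heavy chain of IgM, separated sensitized from naive mice on all arrays but 2. The library labelled naive, 500 ng, 6 h, replicate 8 had Ighm at 13.56, within the OVA range (13.05 to 14.35). The library labelled OVA, 500 ng, 6 h, replicate 3 had Ighm at 9.50, within the naive range (8.51 to 11.55). Both go against their labels, so the members' calls on the 500 ng groups at 6 h are given with and without them. Leaving them out moved the share of all genes that passed from 42.1% to 42.0% (500 ng against buffer, naive), from 41.0% to 38.6% (the same, OVA) and from 32.0% to 33.5% (OVA against naive at 500 ng). On 6 further arrays the keratins Krt4 and Krt13 of gullet epithelium lay far above the rest: 4 were from naive mice (replicates 4 and 6 of buffer at 6 h, replicate 8 of buffer at 24 h, replicate 5 of 150 ng at 6 h) and 2 from OVA mice at 6 h (replicate 7 of buffer and replicate 7 of 1500 ng). The 3′ minus 5′ difference of the beta-actin control probe sets, which rises as RNA degrades, had group means of 1.26 to 2.57 log2 at 6 h and 1.25 to 1.60 at 24 h.

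Chil3 was among the most strongly measured transcripts of the lung, with a mean over all arrays of 13.33 log2, above 99.1% of genes. Chil3 lies at chr3:106147554-106167564 of GRCm38.p6 and encodes Ym1, a secreted chitinase-like lectin without chitinase activity. Chil4, at chr3:106201491-106219479, encodes its close relative Ym2 and had a mean of 9.50. Mmp12, the macrophage elastase, lies at chr9:7344397-7360461 and had a mean of 10.26. Mrc1, the mannose receptor CD206, lies at chr2:14229414-14332023 and had a mean of 12.02. Alox15, the 12/15-lipoxygenase that oxygenates arachidonic acid, lies at chr11:70344147-70390538 and had a mean of 9.32. Cdh1, E-cadherin, lies at chr8:106603350-106670247 and had a mean of 12.60. Levels of different genes come from different probes, so their order carries no information on transcript number. Chil3 and Chil4 are near-identical, and how far each probe set reads the other gene is uncertain.

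**Figure D1:**
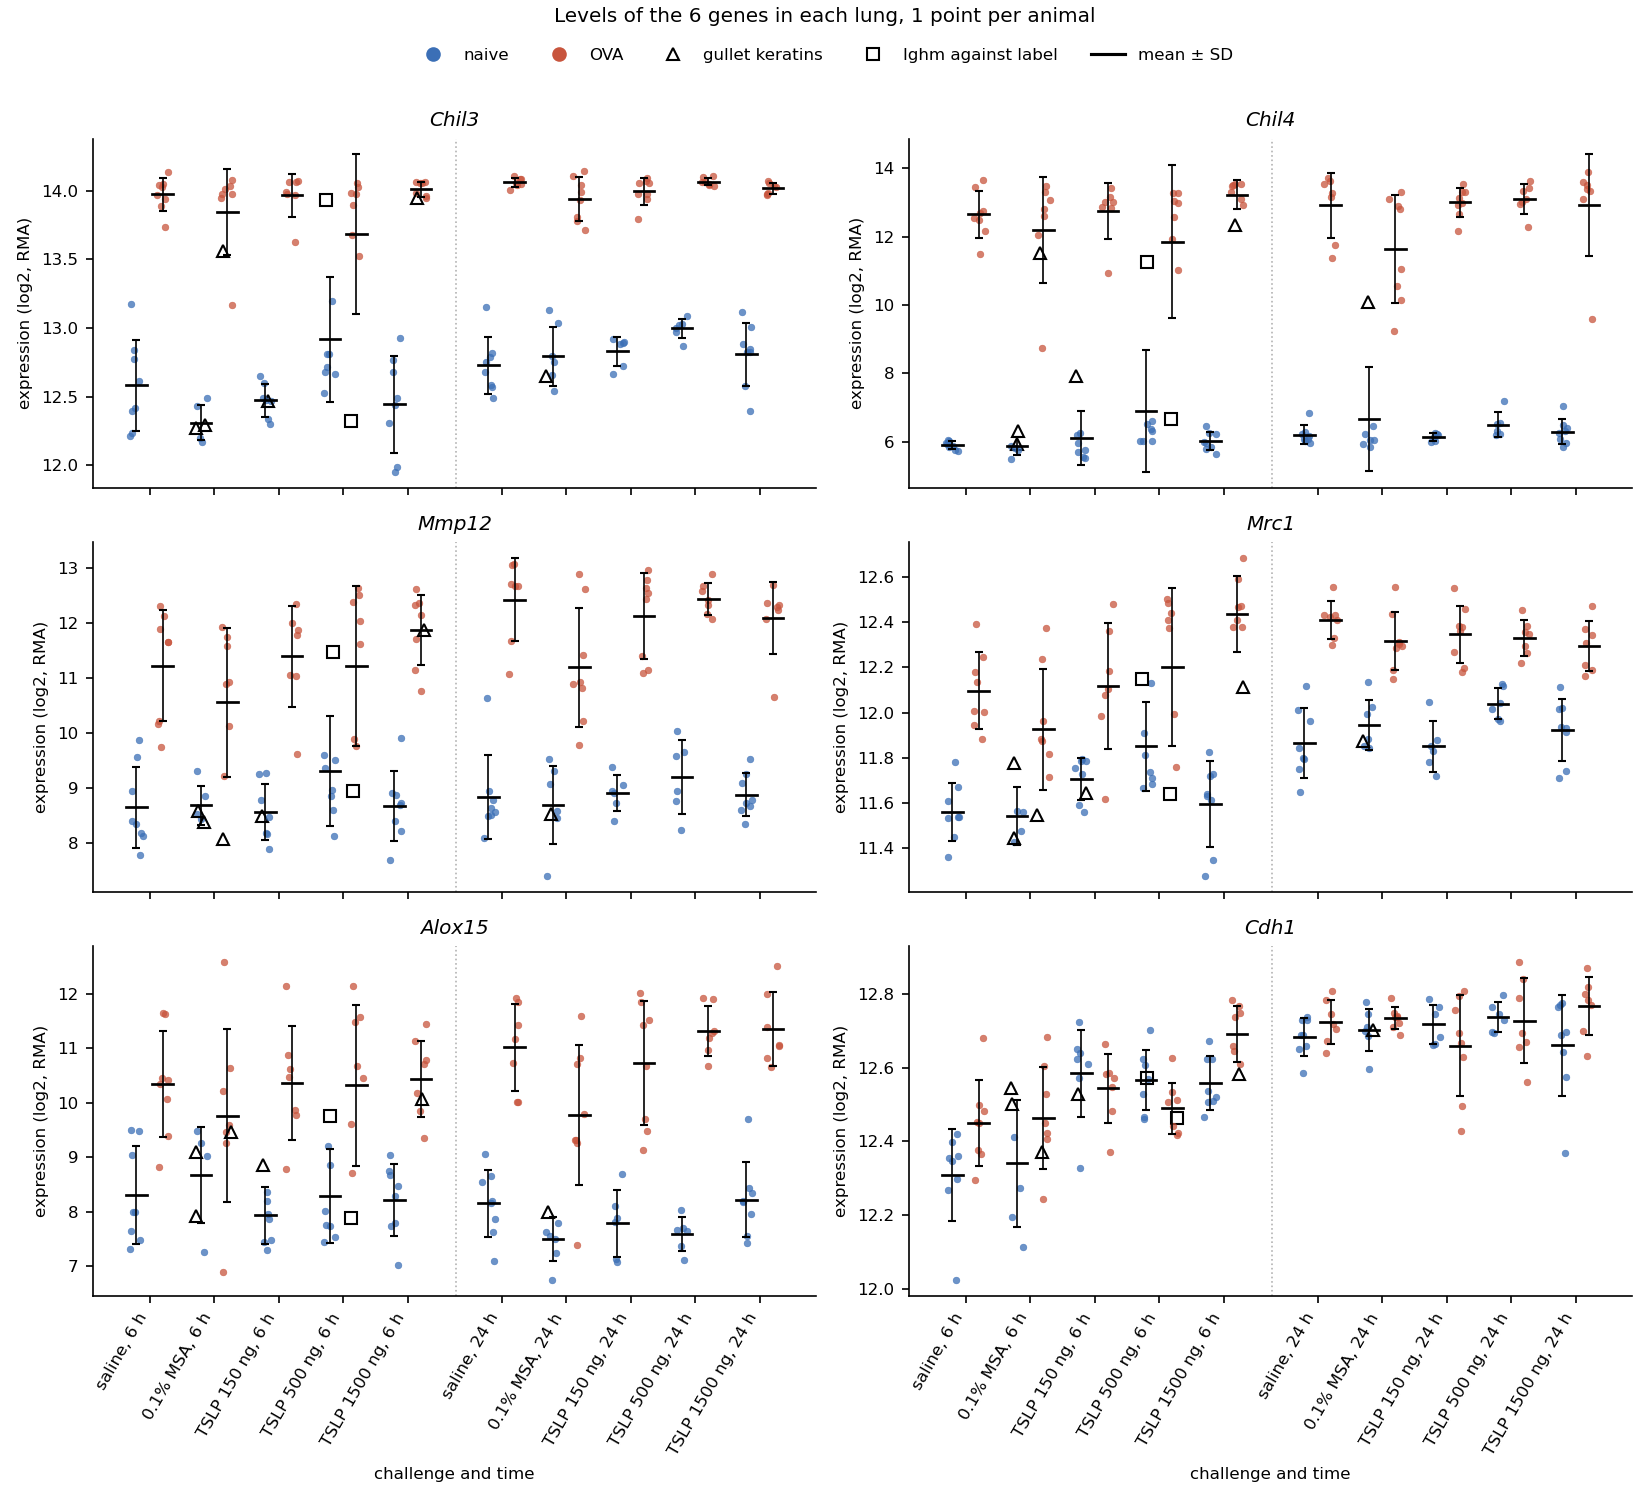
Expression (log2, y axis) of the 6 genes on every array, by challenge and time (x axis), with naive mice in blue and OVA mice in red, bars for the mean ± SD, triangles for arrays with gullet keratins and squares for the arrays whose Ighm goes against the label. Chil4 shows 2 bands, with group means of 5.87 to 6.89 in naive and 11.64 to 13.22 in OVA mice, while the bands of Cdh1 coincide.

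Sensitized mice had higher levels of 5 of the 6 genes, at nearly every challenge and both times, while Cdh1 was close to equal. Over the 10 comparisons of OVA with naive mice at the same challenge and time, 51 of 60 tests passed (limma, Benjamini-Hochberg adjusted p under 0.05 over all genes, two-sided), and in all 51 the OVA mice were higher. The share of all genes that passed in either direction was 23.5% with saline, 33.6% with buffer, 46.0% at 150 ng, 32.0% at 500 ng and 44.2% at 1500 ng at 6 h. At 24 h it was 30.3%, 8.57%, 32.5%, 32.8% and 42.5% in the same order. Chil3, Chil4, Mmp12 and Mrc1 passed in 10 of 10 comparisons, Alox15 in 9 and Cdh1 in 2. The beta-actin difference between OVA and naive groups missed the threshold in all 5 pairs at 24 h (exact permutation tests, adjusted p = 0.499 to 0.883) and passed in 4 of 5 at 6 h, saline being the exception (adjusted p = 0.908). Without the 2 arrays that go against their labels the count of members was again 51, and with the gullet arrays also left out and the beta-actin difference as a covariate it was 52. With arrays weighted by their quality 52 passed, 51 with the OVA mice higher.

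Chil4, the Ym2 gene, showed the widest separation. In the naive saline group at 24 h it was 5.97 at the lowest, 6.13 at the median and 6.84 at the highest (mean 6.21 ± 0.27 SD, n = 8). In the OVA saline group it was 11.37, 13.27 and 13.73 (mean 12.92 ± 0.95 SD, n = 7). All OVA animals thus lay above all naive animals of that pair. The difference was 6.71 ± 0.54 log2 (SE, from a spread shared by all groups; 104-fold on the array's scale, adjusted p = 1.48e-20). Over the 10 pairs the fold ranged from 31.1 to 147. The groups did not overlap in 8 of 10 pairs, the exceptions being 500 ng at 6 h and buffer at 24 h. At 500 ng and 6 h the difference was 4.96 ± 0.52 with all arrays and 6.32 without the 2 arrays that go against their labels. In the naive buffer group at 24 h, replicate 8, an array with gullet keratins, had Chil4 at 10.08, while the others were at most 6.47. Over all arrays the highest naive value was 11.26 and the lowest OVA value 6.67, both on the arrays that go against their labels. With the 8 arrays that failed a check left out, they were 7.19 and 8.73. The 2 were left out because Ighm placed them with the other kind of mice, so the gap is a description and not a test.

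Chil3, the Ym1 gene, was already high in naive lungs and higher still in OVA mice. Naive saline animals at 24 h measured 12.49, 12.71 and 13.16 (lowest, median, highest), and OVA saline animals 14.01, 14.06 and 14.11. The groups did not overlap, and the difference was 1.34 ± 0.13 log2 (2.52-fold, adjusted p = 4.08e-16). Over the 10 pairs the difference ran from 0.77 to 1.57, its lowest value falling at 500 ng and 6 h, where it was 1.11 without the 2 arrays. In 9 of 10 pairs the groups did not overlap. At 24 h the SD between animals ran from 0.03 to 0.16 log2 in the OVA groups and from 0.07 to 0.23 in the naive groups. The highest value of any probe set on any array was 15.11, and whether the Chil3 step is compressed near the top of the scale was not tested. A probe set that the annotation gives to both Chil4 and Chil3, kept as a check, was also higher in OVA mice in 10 of 10 pairs, by 1.19 to 2.89 log2 (1.75 to 2.89 without the 2 arrays).

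Mmp12 encodes a secreted protease that cleaves elastin and is made mainly by macrophages. It ranged from 8.09 through a median of 8.60 to 10.63 in naive saline animals at 24 h, and from 11.07 through 12.67 to 13.08 in OVA animals. No OVA animal reached down to the naive range. The difference of 3.59 ± 0.42 log2 corresponds to 12.1-fold (adjusted p = 1.59e-11). At 6 h the saline groups overlapped, with 7.77 to 9.87 in naive and 9.73 to 12.31 in OVA animals, and the difference was 2.57 ± 0.41 (adjusted p = 8.87e-07). The smallest difference of the 10, 1.88 ± 0.44, was between the buffer groups at 6 h, and 7 of 10 pairs did not overlap. At 500 ng and 6 h it was 1.91 with all arrays and 2.55 without the 2 arrays.

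Mrc1, the receptor that takes up mannose-rich glycoproteins, moved by less than 1 log2 unit but with little spread. In saline animals at 24 h it measured 11.65, 11.82 and 12.12 in naive and 12.30, 12.42 and 12.56 in OVA mice, with no overlap. The difference was 0.55 ± 0.09 log2 (1.46-fold, adjusted p = 4.32e-07). Over the 10 pairs it ran from 0.29 at 500 ng and 24 h to 0.84 at 1500 ng and 6 h, and 7 pairs did not overlap. At 500 ng and 6 h it was 0.35 with all arrays and 0.48 without the 2 arrays; with the compared groups fitted alone the former missed the threshold (adjusted p = 0.0502).

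Alox15, the lipoxygenase, had the widest spread between animals of a group in sensitized mice after Chil4. In saline animals at 24 h it measured 7.10, 8.18 and 9.06 in naive and 10.01, 11.16 and 11.92 in OVA mice, which did not overlap. The difference was 2.86 ± 0.47 log2 (7.27-fold, adjusted p = 3.96e-07). The largest difference, 3.73 ± 0.50 (13.2-fold), was at 500 ng and 24 h. In the buffer groups at 6 h it was 1.08 ± 0.49 and missed the threshold (adjusted p = 0.0732). There naive animals lay between 7.26 and 9.47 and OVA animals between 6.90 and 12.57, so the naive range fell wholly within that of the OVA animals. Without OVA buffer replicate 3 that difference was 1.49 and passed (adjusted p = 0.0109). The groups did not overlap in 5 of 10 pairs, 4 of them at 24 h. At 500 ng and 6 h the difference was 2.03 with all arrays and 2.59 without the 2 arrays.

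Cdh1, which in macrophages takes part in fusion and in epithelium holds neighbouring cells together, had nearly the same level in both kinds of mice. In saline animals at 24 h it measured 12.59, 12.69 and 12.74 in naive and 12.64, 12.72 and 12.81 in OVA mice. These ranges overlapped, with 3 of the 7 OVA animals above every naive animal, and the difference was 0.04 ± 0.05 log2 (adjusted p = 0.602). It passed in 2 of 10 pairs, both at 6 h: by 0.14 ± 0.05 with saline (adjusted p = 0.0283) and by 0.13 ± 0.05 at 1500 ng (adjusted p = 0.0221). The saline call was lost with the compared groups fitted alone (adjusted p = 0.167) and with array weights (adjusted p = 0.0574), and the 1500 ng call with the beta-actin covariate (0.07, adjusted p = 0.209). At 500 ng and 6 h the difference was -0.08 with all arrays and -0.07 without the 2 arrays. No pair was free of overlap. In the buffer groups at 6 h it was 0.12 ± 0.05 (adjusted p = 0.0651), and it passed there (0.23, adjusted p = 0.00257) once the gullet arrays were left out, 2 from the naive and 1 from the OVA buffer group.

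**Figure D2:**
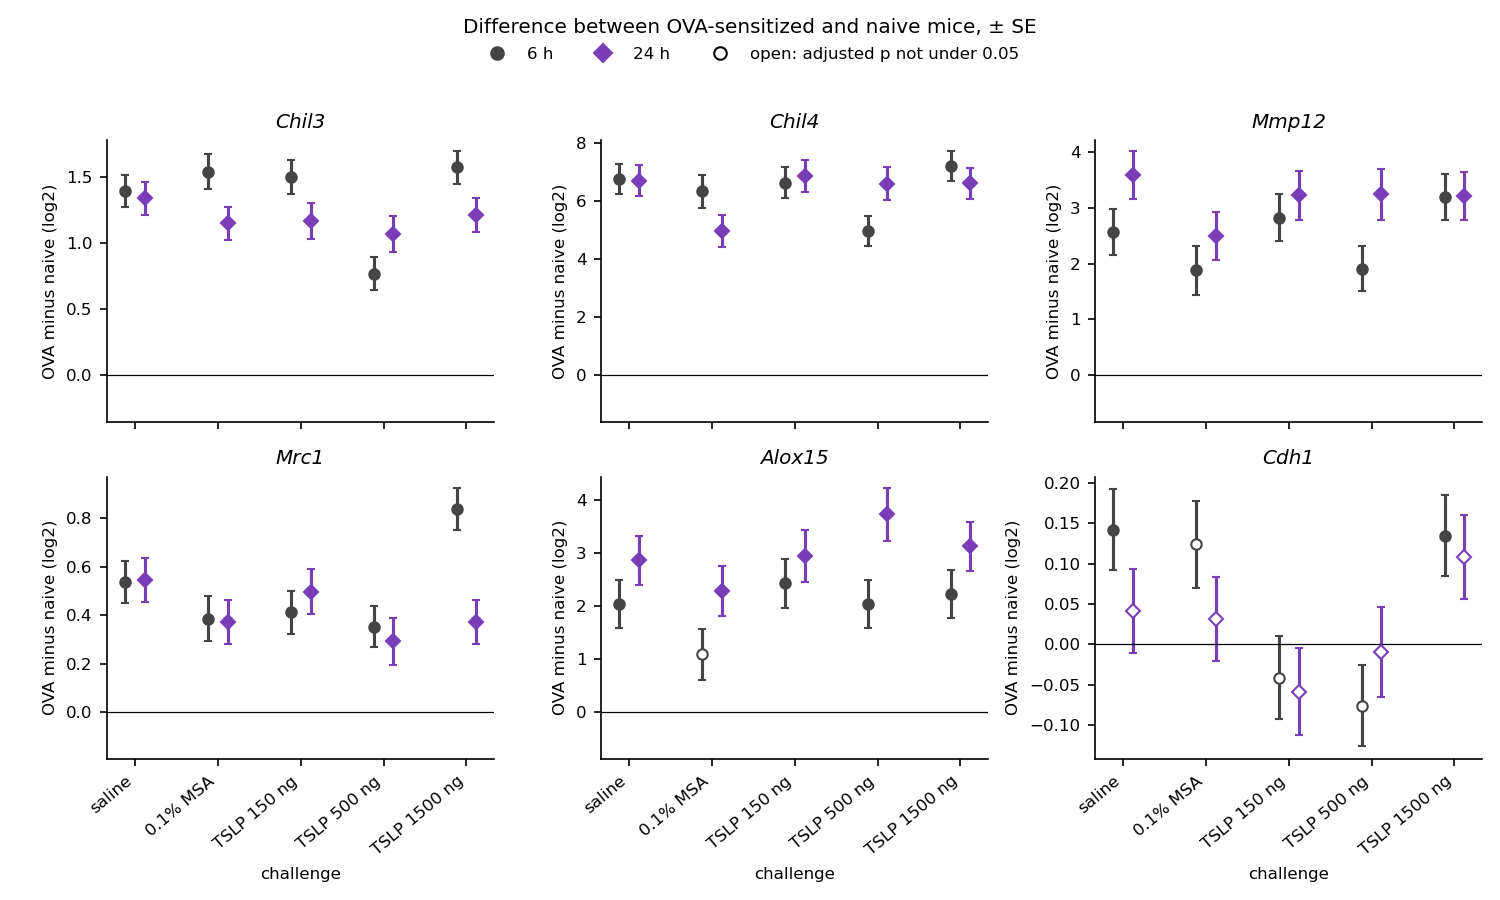
Difference between OVA and naive mice (log2, y axis) at the same challenge (x axis) for each gene, with circles for 6 h, diamonds for 24 h, bars for the SE and open symbols where the adjusted p was not under 0.05. Chil4 lies between 4.96 and 7.20 and Cdh1 between -0.08 and 0.14.

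Ranked by group mean, OVA groups took the upper 10 places and naive groups the lower 10 for Chil3, Chil4, Mmp12 and Alox15. Neighbours in that order were rarely apart by more than their spread. Of 19 steps, the gap exceeded the larger SD of the 2 groups in 1 step for Chil4, the step between the lowest OVA group (buffer, 24 h, 11.64) and the highest naive group (500 ng, 6 h, 6.89; 6.27 without the array that goes against its label). It did so in 2 steps for Chil3 and in no step for the other 4 genes. For Mrc1 and Cdh1 the naive and OVA groups were mixed in the order: the highest naive mean of Mrc1, 12.04 at 500 ng and 24 h, lay above the lowest OVA mean, 11.93 with buffer at 6 h.

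The genes also varied together. Across the 20 group means Pearson's r was 0.98 for Chil3 with Chil4, 0.97 for Chil4 with Mmp12, 0.96 for Mmp12 with Alox15 and 0.86 for Chil4 with Mrc1. For Cdh1 it was 0.13 to 0.61 with the other 5. These values mostly restate the step between naive and OVA mice. Among the 73 OVA arrays left without the 8 doubtful ones, animals with more Mmp12 also had more Alox15 (r = 0.74), Chil4 (r = 0.71) and Chil3 (r = 0.62), and Mrc1 went with Alox15 (r = 0.57). For these values and the naive ones that follow, each gene's group mean was subtracted first. Mean differences between challenges and times therefore do not enter them. Among the 68 naive arrays left, Chil3 went with Mrc1 (r = 0.59), while r was 0.22 for Chil3 with Chil4 and 0.01 for Chil4 with Mmp12. All values are descriptions over animals that share groups and 1 joint normalization.

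**Figure D3:**
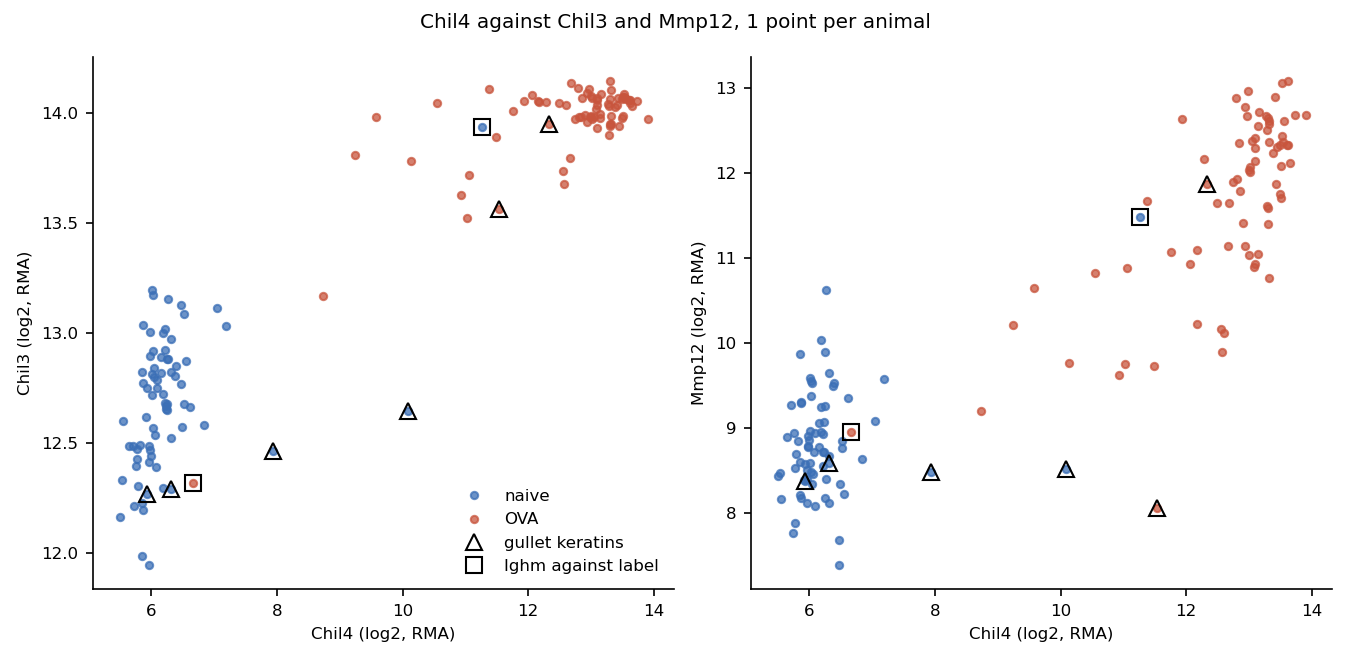
Chil4 (log2, x axis) against Chil3 (left) and Mmp12 (right, both log2, y axis), 1 point per animal, with naive mice in blue, OVA mice in red, triangles for arrays with gullet keratins and squares for arrays whose Ighm goes against the label. Naive mice form a narrow column at Chil4 levels near 6 whatever their Mmp12, and OVA mice spread along a rising line.

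Fewer tests passed for TSLP than for sensitization, and the members that did were chiefly Mrc1, Cdh1, Mmp12 and Alox15. Each dose was compared with the buffer group of the same sensitization and time, so the 3 doses share their control animals. Of 72 tests 13 passed, all with TSLP higher, while 0.0% to 60.7% of all genes passed in the 12 comparisons. With the beta-actin covariate 5 passed: Cdh1 at 150 ng and Chil3 at 500 ng in naive mice at 6 h, and in OVA mice at 24 h Mmp12 at 500 ng and Alox15 at 500 and 1500 ng. Without the 2 arrays that go against their labels 17 passed, and with the gullet arrays also left out and the covariate 10 passed. With arrays weighted by their quality 17 passed, 16 with TSLP higher. At 1500 ng (naive 6 h, OVA 6 h, naive 24 h, OVA 24 h) 15.3%, 60.7%, 0.978% and 38.5% of all genes passed. With the covariate these shares were 4.66%, 7.72%, 0.326% and 32.7%. With both sets of arrays also left out they were 11.6%, 11%, 0.185% and 35%. With array weights they were 28.8%, 63.9%, 1.99% and 51.1%. Without the 2 arrays alone they were 15.3%, 60.8%, 0.912% and 38.5%.

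In naive mice at 6 h, 1 of 6 genes passed at 150 ng, 3 at 500 ng and 1 at 1500 ng, against 27.2%, 42.1% and 15.3% of all genes. Chil3 measured 12.17, 12.28 and 12.49 with buffer and 12.53, 12.76 and 13.94 at 500 ng. The groups did not overlap, and the difference was 0.61 ± 0.13 log2 (adjusted p = 0.000128), or 0.46 (adjusted p = 0.00022) without the 2 arrays. At 1500 ng it was 0.13 ± 0.13, lower than at 500 ng. The naive buffer group at 6 h had the lowest Chil3 mean of the 20 groups (12.31). Naive saline animals at 6 h measured 12.21, 12.52 and 13.17 (mean 12.58) and overlapped the 500 ng group. The 500 ng mean was 12.92, or 12.77 without the array that goes against its label. Mrc1 was 0.31 ± 0.09 higher at 500 ng (adjusted p = 0.005; 0.27 without the 2 arrays; 0.18 with adjusted p = 0.193 with the beta-actin covariate). Cdh1 was higher at every dose, by 0.25 ± 0.05, 0.23 ± 0.05 and 0.22 ± 0.05 from the lowest dose up (0.23 at 500 ng without the 2 arrays). Its buffer animals lay between 12.11 and 12.54, those at 1500 ng between 12.47 and 12.67. Buffer replicates 4 and 6 carried gullet keratins, and the other 4 buffer animals reached at most 12.41 (mean 12.25). In the same comparisons the beta-actin difference was lower with TSLP by 0.49, 0.70 and 0.53 log2 (exact permutation tests, adjusted p = 0.0384, 0.0036 and 0.0203). With it as a covariate the Cdh1 differences were 0.16 (adjusted p = 0.0266), 0.10 (adjusted p = 0.162) and 0.12 (adjusted p = 0.131). Chil4 was at 6.35 at the median at 500 ng against 5.84 with buffer, and its difference of 1.03 ± 0.56 (adjusted p = 0.132) fell to 0.40 without the 2 arrays. The probe set shared by Chil4 and Chil3 was 1.67 ± 0.27 higher at 500 ng (limma over all probe sets, adjusted p = 1.22e-06), or 1.44 without the 2 arrays. At 150 and 1500 ng it was 0.57 and 0.54 higher and missed the threshold.

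In OVA mice at 6 h, 0 of 6 genes passed at 150 ng (1 at an unadjusted p under 0.05), 1 at 500 ng and 3 at 1500 ng, against 0.163%, 41.0% and 60.7% of all genes. Mrc1 gave the clearest change: 11.55, 11.88 and 12.38 with buffer (n = 8) and 12.11, 12.44 and 12.68 at 1500 ng (n = 8). The ranges overlapped, with the median at 1500 ng above the highest buffer animal. The difference was 0.51 ± 0.09 log2 (1.43-fold, adjusted p = 1.53e-07), and at 500 ng it was 0.28 ± 0.09 (adjusted p = 0.00648; 0.36 without the 2 arrays). The 500 ng call was lost against saline (0.10, adjusted p = 0.34), with the compared groups fitted alone (adjusted p = 0.158) and with the beta-actin covariate (0.13, adjusted p = 0.407). Mmp12 measured 8.06, 10.91 and 11.93 with buffer and 10.77, 12.01 and 12.61 at 1500 ng, a difference of 1.31 ± 0.41 (2.47-fold, adjusted p = 0.0039). At 500 ng it was 0.66 ± 0.41 and missed the threshold; without the 2 arrays it was 0.98 and passed (adjusted p = 0.0418). Cdh1 was 0.23 ± 0.05 higher at 1500 ng (adjusted p = 3.72e-05). Chil4 was 1.02 ± 0.52 higher with adjusted p = 0.0801, and adjusted p = 0.027 without the 2 arrays, which are in neither group but enter the shared spread. Chil3 (0.17 ± 0.12) and Alox15 (0.68 ± 0.45) missed the threshold. The probe set shared by Chil4 and Chil3 passed at 1500 ng, 0.59 ± 0.25 above buffer (limma over all probe sets, adjusted p = 0.0323).

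RNA quality moved with that comparison. The beta-actin difference was 2.57 ± 0.26 (SD, n = 8) with buffer and 1.26 ± 0.12 (SD, n = 8) at 1500 ng (exact permutation test, adjusted p = 0.00112). With it as a covariate Mrc1 was 0.27 higher (adjusted p = 0.119), Mmp12 1.47 (adjusted p = 0.0787), and Cdh1 -0.01 (adjusted p = 0.97). With the saline animals as the reference Mmp12 was 0.65 higher (adjusted p = 0.164).

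At 24 h no member passed in naive mice at any dose, nor at an unadjusted p under 0.05, and 0.215%, 0.0% and 0.978% of all genes did at 150, 500 and 1500 ng (637 genes had an unadjusted p under 0.05 at 500 ng). In OVA mice at 24 h, 0 members passed at 150 ng (3 unadjusted), 2 at 500 ng and 2 at 1500 ng, against 10.5%, 11.8% and 38.5% of all genes. Alox15 measured 7.40, 9.56 and 11.58 with buffer and 10.66, 11.05 and 12.50 at 1500 ng. The ranges overlapped, but all 7 animals at 1500 ng lay above the buffer mean. The difference was 1.58 ± 0.47 log2 (2.98-fold, adjusted p = 0.00445), and at 500 ng it was 1.54 ± 0.47 (adjusted p = 0.0201). The beta-actin difference was 0.32 higher at 1500 ng than with buffer in OVA mice (exact permutation test, adjusted p = 0.00112) and 0.32 higher in naive mice (adjusted p = 0.0438, same exact test). With it as a covariate Alox15 was 1.70 higher (adjusted p = 0.00344) in OVA mice. Chil4 measured 9.25, 11.93 and 13.31 with buffer and 9.58, 13.38 and 13.90 at 1500 ng. Its difference of 1.28 ± 0.54 sat on the threshold (adjusted p = 0.0496), and the call was lost when any of 10 of the 15 animals was left out. At 150 and 500 ng the difference was 1.37 and 1.46, with adjusted p = 0.0696 and 0.0571. Mmp12 was 1.25 ± 0.42 higher at 500 ng (adjusted p = 0.039) and 0.90 ± 0.42 at 1500 ng (adjusted p = 0.0837). Mrc1 and Cdh1 differed from buffer by -0.07 to 0.03 at the 3 doses.

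These 24 h changes in OVA mice were not found against saline. Set against the saline animals, which measured 10.01, 11.16 and 11.92 for Alox15, the 1500 ng group was 0.34 higher for Alox15 (adjusted p = 0.649), and Chil4 differed by -0.01. At 500 ng Mmp12 was 0.02 above saline and Alox15 0.30. With the compared groups fitted alone, the 500 ng calls of Alox15 and Mmp12 were lost too (adjusted p = 0.0701 and 0.0726). The shared probe set of Chil4 and Chil3 was 0.13 ± 0.26 above buffer at 1500 ng and 24 h (adjusted p = 0.739).

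**Figure D4:**
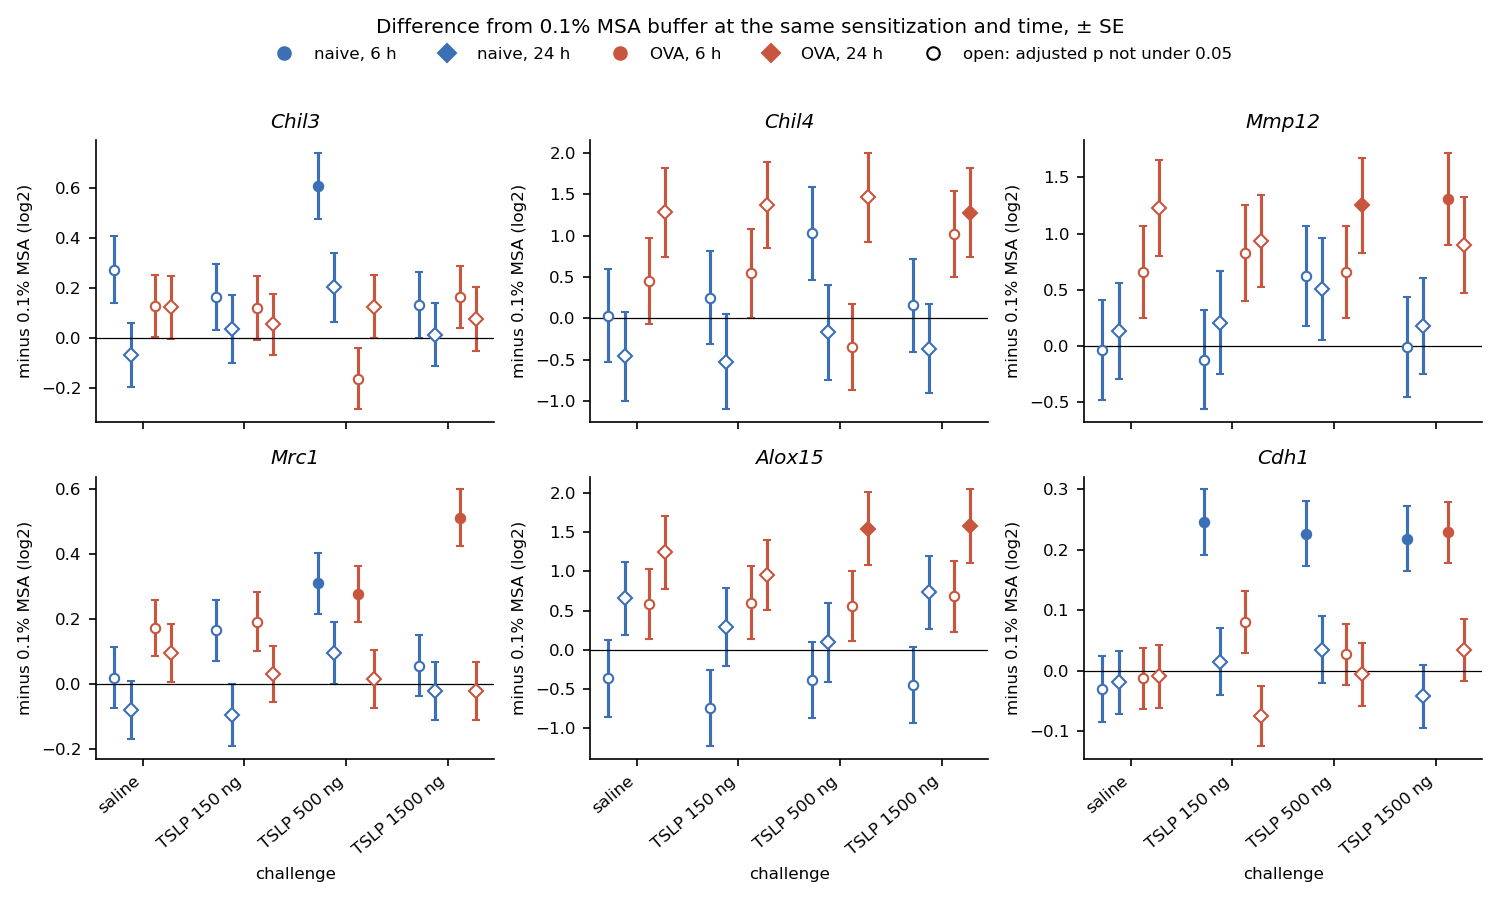
Difference from the buffer group at the same sensitization and time (log2, y axis) for saline and the 3 doses of TSLP (x axis), with naive mice in blue, OVA mice in red, circles for 6 h, diamonds for 24 h, bars for the SE and open symbols where the adjusted p was not under 0.05. In OVA mice at 24 h saline also lies above buffer for Chil4, Mmp12 and Alox15, by 1.28, 1.23 and 1.24. For each of these genes that is between the lowest and the highest of the 3 TSLP doses.

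The buffer alone changed no member past the threshold. Of 24 tests of buffer against saline 0 passed, with 1, 1, 0 and 3 members at an unadjusted p under 0.05 in naive 6 h, OVA 6 h, naive 24 h and OVA 24 h; of all genes 14.9%, 0.356%, 0.00741% and 0.882% passed. The 3 of OVA mice at 24 h were Chil4, at -1.28 ± 0.54 log2 (adjusted p = 0.245), Mmp12, at -1.23 ± 0.42 (adjusted p = 0.13), and Alox15, at -1.24 ± 0.47 (adjusted p = 0.179). With arrays weighted by their quality, Mmp12 was -1.38 (adjusted p = 0.00103) and Alox15 -1.57 (adjusted p = 0.000975). The OVA buffer animals at 24 h were widely spread, with Mmp12 between 9.77 and 12.88, while saline animals lay between 11.07 and 13.08. Of 4 eosinophil markers measured, 3 were lower with buffer than with saline there, with a list median of -1.53. Their mean level per animal ran from 6.01 to 7.83 with buffer and from 7.13 to 8.85 with saline, and the part of eosinophils in the 3 genes was not tested.

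Between 6 and 24 h Mrc1 rose in 6 of 10 pairs of groups and Cdh1 in 5, and the other members passed in fewer. Of 60 tests of 24 h against 6 h at the same sensitization and challenge 17 passed, 16 with the later time higher. With the beta-actin covariate 9 passed, 3 of them in OVA mice, and with arrays weighted by their quality 25 passed. In naive mice the members that passed numbered 2 of 6 with saline, 4 with buffer, 0 at 150 ng (2 unadjusted), 0 at 500 ng (2 unadjusted) and 2 at 1500 ng, against 61.2%, 49.9%, 13.8%, 2.21% and 11.1% of all genes. In OVA mice they numbered 3, 2, 1, 3 and 0 (0 unadjusted), against 61.0%, 61.8%, 45.2%, 13.8% and 30.8%.

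Cdh1 in naive saline animals measured 12.02, 12.35 and 12.42 at 6 h and 12.59, 12.69 and 12.74 at 24 h. The times did not overlap, and the difference was 0.38 ± 0.05 log2 (adjusted p = 1.62e-10). Mrc1 rose by 0.31 ± 0.09 in naive and 0.31 ± 0.09 in OVA saline animals. In both saline pairs the beta-actin difference also fell, by 1.04 in naive and by 1.18 in OVA mice (exact permutation tests, adjusted p = 0.0016 and 0.00112). With it as a covariate the Cdh1 difference was 0.19 in naive (adjusted p = 0.00661) and 0.07 in OVA saline animals (adjusted p = 0.439), and that of Mrc1 0.11 (adjusted p = 0.433) and 0.10 (adjusted p = 0.56). The covariate also ended the calls of Mrc1 in OVA mice with buffer (0.15) and at 150 ng (0.06), and in naive mice with buffer (0.24), but not in naive mice at 1500 ng (0.32, adjusted p = 0.00526). Within groups, the correlation with the beta-actin difference was -0.56 over naive and -0.34 over OVA arrays for Cdh1, -0.31 and -0.27 for Mrc1, and between -0.14 and 0.18 for the other 4.

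Mmp12 rose with time in OVA mice given saline, from a median of 11.65 to 12.67 (1.20 ± 0.42, adjusted p = 0.0103; 1.35 with adjusted p = 0.056 with the covariate), and at 500 ng by 1.22 ± 0.42 (adjusted p = 0.0387). The latter missed the threshold without the 2 arrays (0.90, adjusted p = 0.149). Chil3 in OVA mice at 500 ng likewise passed with all arrays (0.38 ± 0.13, adjusted p = 0.0303) and not without the 2 (0.19, adjusted p = 0.23). In naive mice Chil3 rose by 0.49 ± 0.14 with buffer and by 0.37 ± 0.12 at 1500 ng. Alox15 in naive buffer animals was the only member lower at the later time past the threshold, with a median of 9.06 at 6 h and 7.56 at 24 h (-1.18 ± 0.50, adjusted p = 0.0418). Chil4 passed at none of the 10 pairs. The probe set shared by Chil4 and Chil3 rose in naive mice by 0.90 with saline, 1.42 with buffer and 0.89 at 150 ng. These passed (limma over all probe sets, adjusted p = 0.00105, 1.26e-05 and 0.021), and no other pair did.

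**Figure D5:**
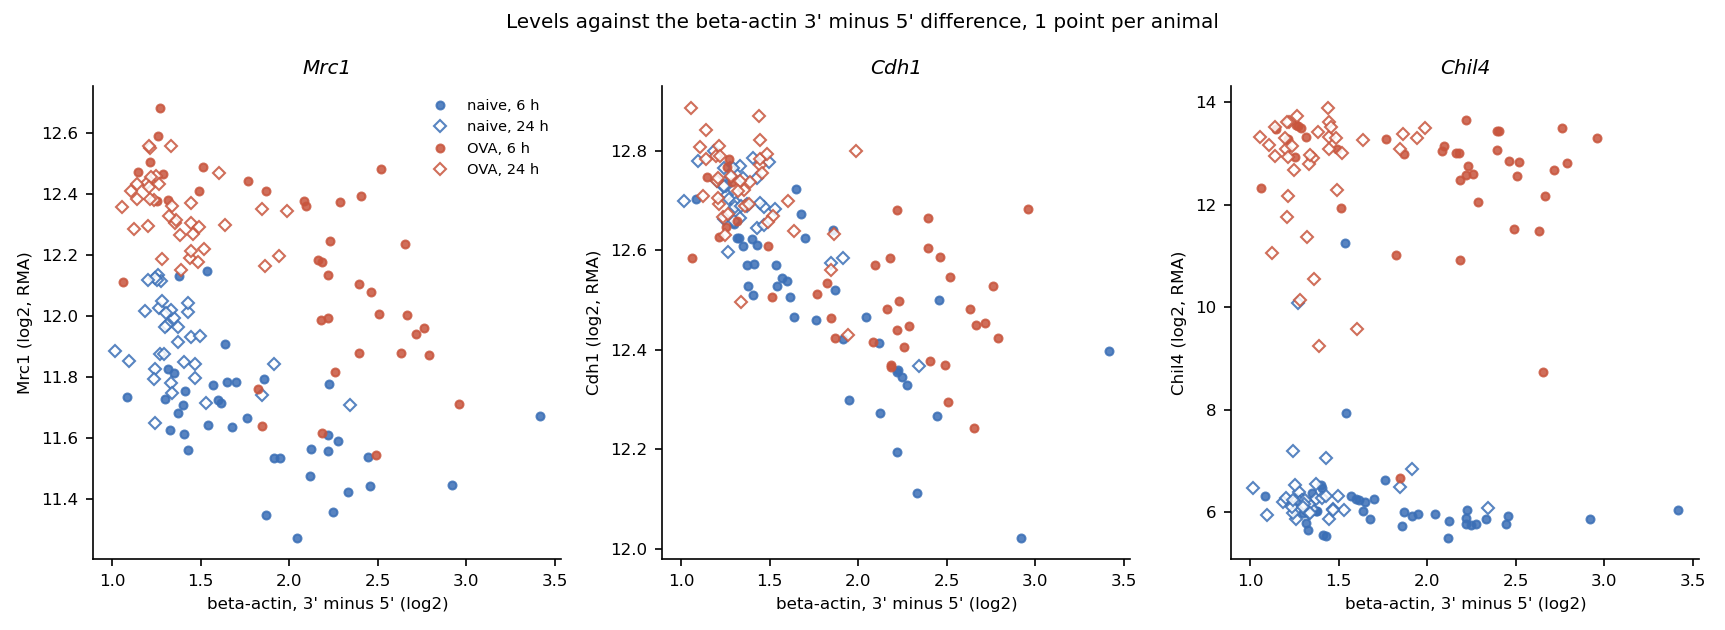
Mrc1, Cdh1 and Chil4 (log2, y axis) against the beta-actin 3′ minus 5′ difference (log2, x axis), 1 point per animal, with naive mice in blue, OVA mice in red, filled circles for 6 h and open diamonds for 24 h. Cdh1 falls as the difference grows, within both kinds of mice, and Chil4 keeps its 2 bands over the whole range.

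Of 36 tests of the differences between effects 4 passed, and 0 passed with the beta-actin covariate (limma; 6 at an unadjusted p under 0.05). The effect of 1500 ng TSLP against buffer at 6 h was larger in OVA than in naive mice for Mrc1, by 0.46 ± 0.13 log2 (adjusted p = 0.00379), with 31.8% of all genes passing. With the beta-actin covariate it was 0.31 (adjusted p = 0.13), and against saline 0.30 (adjusted p = 0.0982). The same test at 24 h gave 0 members (1 unadjusted) and 4.42% of genes. Between times, the effect of 1500 ng was smaller at 24 h than at 6 h in OVA mice for Mrc1 (-0.53 ± 0.12, adjusted p = 0.000101) and Cdh1 (-0.19 ± 0.07, adjusted p = 0.015), with 60.2% of genes passing. In naive mice it was smaller for Cdh1 (-0.26 ± 0.07, adjusted p = 0.00953), with 17.1%. With the covariate the Mrc1 value in OVA mice was -0.23 (adjusted p = 0.28), the Cdh1 value there turned to 0.10 (adjusted p = 0.408), and the Cdh1 value in naive mice was -0.11 (adjusted p = 0.501). The OVA effect itself did not differ between 24 and 6 h past the threshold for any member, with buffer (1 unadjusted; 2.9% of genes) or with saline (0 unadjusted; 0.0222%).

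Across the 3 doses, the slope per 10-fold dose passed in OVA mice at 6 h for Mrc1 (0.32 ± 0.09, adjusted p = 0.00173) and Cdh1 (0.14 ± 0.05, adjusted p = 0.0149), with 50.4% of genes. Without the 2 arrays these slopes were 0.32 and 0.14. It passed for no member in naive mice at 6 h (0 unadjusted; 0.17% of genes) or 24 h (0 unadjusted; 0.452%), nor in OVA mice at 24 h (1 unadjusted; 15.0%). With the beta-actin covariate the OVA slopes at 6 h were 0.13 for Mrc1 (adjusted p = 0.485) and -0.04 for Cdh1 (adjusted p = 0.728).

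Other genes of alternative activation were mostly higher in OVA than in naive mice given saline. Of 26 listed, 21 were measured; 2 familiar ones, Arg1 and Retnla, are not analysed here. Between OVA and naive saline animals at 24 h, 15 were higher and 0 lower, with a median of 1.29 log2 against -0.03 over all genes and 30.3% of all genes passing. They included the chemokines Ccl17 (2.95 ± 0.32) and Ccl22 (2.80 ± 0.31), the lectin Mgl2 (1.94 ± 0.21) and the growth factor Igf1 (1.71 ± 0.21). At 6 h with saline 13 were higher and 1 lower, against 23.5% of all genes. In the buffer pairs fewer passed: 6 were higher and 1 lower at 6 h, against 33.6% of all genes. At 24 h with buffer 12 were higher and 0 lower, against 8.57%. At 1500 ng against buffer in OVA mice, 15 were higher and 2 lower at 6 h (median 0.60 against -0.06 over all genes), Pparg being lower (-0.59 ± 0.09) and Flt1 (0.73 ± 0.12), Il1rn (1.47 ± 0.28) and Irf4 (1.17 ± 0.23) higher. In that comparison 60.7% of all genes passed and the beta-actin difference was -1.31; with it as a covariate 7.72% of all genes passed, and of this list 0 did in either direction (5 at an unadjusted p under 0.05; median 0.40). At 24 h 10 were higher and 3 lower (median 0.45), against 38.5% of all genes. In naive mice the same dose gave 0 higher and 1 lower at 6 h and 0 of either at 24 h, against 15.3% and 0.978% of all genes.

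Genes of classical activation gave a mixed picture between OVA and naive saline animals at 24 h. Of 16 measured 6 were higher and 2 lower (median 0.13), against 30.3% of all genes passing in that pair. Cxcl9 (3.40 ± 0.42) and Cxcl10 (2.36 ± 0.35), chemokines induced by interferon, and the costimulatory Cd86 (0.98 ± 0.12) rose, and Il12a fell by 0.46. Of 10 genes of Il4 and Il13 signalling measured, 5 were higher and 0 lower there (median 0.15): the decoy receptor Il13ra2 (2.18 ± 0.28), the cytokines Il13 (2.34 ± 0.31) and Il4 (0.95 ± 0.18), the kinase Jak2 (0.18 ± 0.04) and Jak3. At 1500 ng in OVA mice at 6 h, 7 of these 10 were higher and 3 lower, where 60.7% of all genes passed. Il13 differed by 1.69 ± 0.30, Jak1 by 0.46 ± 0.06, Jak2 by 0.20 ± 0.04 and Stat6 by -0.38 ± 0.05. With the beta-actin covariate 5 were higher and 0 lower there, against 7.72% of all genes.

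Relatives of the members were compared in the same saline pair at 24 h, where 30.3% of all genes passed. Of 6 other chitinases and chitinase-like genes 3 were higher and 0 lower (median 0.18): Chia1, the acidic chitinase (1.82 ± 0.19), Chil1 (0.39 ± 0.06) and Chid1 (0.33 ± 0.08). Of 13 metalloproteinases and inhibitors 4 were higher and 2 lower (median -0.04), among them Mmp19 (0.82 ± 0.13) and Timp1 (1.49 ± 0.30), which rose, and Mmp11 (-0.50 ± 0.10), which fell. Of 11 mannose receptor relatives and C-type lectins 5 were higher and 1 lower (median 0.41), with Cd209d (1.47 ± 0.18) and Clec4a2 (1.49 ± 0.23) higher and Pla2r1 (-0.64 ± 0.10) lower. Of 11 lipoxygenases and leukotriene genes 3 were higher and 2 lower (median 0.01), with Alox12e (1.88 ± 0.24) higher and Alox12 (-0.68 ± 0.13) lower. Of 8 genes of a list of catenins and other cadherins 0 were higher and 4 lower (median -0.13). Among these, alpha-catenin Ctnna1 was lower by -0.13 ± 0.03. Cdh5, a cadherin that is also on the endothelial list and is not a partner of Cdh1, was lower by -0.35 ± 0.11.

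Markers of cell types moved with sensitization as well in the saline pair at 24 h, where 30.3% of all genes passed. In that pair, 4 of 7 pan-macrophage markers were higher and 2 lower (median 0.18; Adgre1 0.81 ± 0.15, Cd68 0.61 ± 0.13, Mertk -0.28 ± 0.08), and their mean level per animal was 10.29 to 10.67 in naive and 10.57 to 10.77 in OVA mice. Of 9 alveolar macrophage markers 4 were higher (median 0.30; Itgax 1.51 ± 0.15), at 9.45 to 9.84 in naive and 9.92 to 10.21 in OVA mice. Of 10 monocyte and interstitial macrophage markers 6 were higher and 1 lower (median 0.56; C1qc 1.27 ± 0.15), at 10.48 to 10.99 and 10.92 to 11.41. Of 4 eosinophil markers measured 3 were higher (median 2.42), at 5.82 to 6.17 and 7.13 to 8.85. All 10 goblet cell markers were higher (median 3.15; Clca1 7.50 ± 0.65), 6 of 7 dendritic cell markers were higher (median 0.63), and 0 of 7 neutrophil markers were higher and 1 lower. For Cdh1, epithelial markers divided into 3 higher and 3 lower of 10 (median -0.01), and all 8 alveolar type 1 markers were lower (median -0.22). The part of cell numbers in the members' differences was not tested.

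Beside the 1500 ng effect in OVA mice at 6 h, 3 of 7 pan-macrophage markers were higher and 2 lower (Cd68 0.71 ± 0.13, Csf1r -0.28 ± 0.05), and 7 of 9 endothelial markers were higher and 0 lower (median 0.49; Kdr 0.73 ± 0.11, Pecam1 0.76 ± 0.12), against 60.7% of all genes. With the beta-actin covariate 0 of either list passed (1 pan-macrophage and 0 endothelial markers at an unadjusted p under 0.05), and the endothelial median was 0.09. Mrc1 is carried by some endothelium, and the part of those cells in its rise was not tested. At 24 h the endothelial list turned to 1 higher and 5 lower, 6 of 10 goblet cell markers were higher (median 0.97; Retnlb 2.32 ± 0.51) and 0 of 4 eosinophil markers passed in either direction (median 0.05), against 38.5% of all genes. All 4 fat markers measured were lower there (median -2.31), and 6 of 8 alveolar type 1 markers were lower (median -0.16). The part of these cells in the members' 24 h differences was not tested.

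For each member the 3 named genes whose 20 group means ran most nearly parallel to its own were picked by Pearson's r, as a description. For Chil3 they were Ccl8 (0.98), Clca1 (0.97) and Cep55 (0.97), and for Chil4 they were Scin, Capn9 and Chia1 (0.99 each). For Mmp12 they were Slamf8 (0.99), Panct2 (0.99) and Igf1 (0.99), and for Mrc1 Pkib (0.97), Car8 (0.96) and Clec4a3 (0.96). Alox15 ran with Dok2, Corin and Metrnl (0.98 each). Cdh1 ran with Zfand6 (0.97), Eef1b2 (0.97) and Hnrnpu (0.97).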

How the data were processed

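RNA of whole lungs was extracted and labelled with a 3′ in vitro transcription kit, per the labels' protocols. The authors deposited log2 expression values made with RMA (robust multi-array average), per the submitters' processing notes; the version is not given in the sources used here. Such values come without detection calls, and precision depends on how many arrays a group has. Of 26166 probe sets, 22892 name 1 gene, 260 several and 3014 none; each gene was taken from its probe set with the highest mean. A mean per group was fitted over all 149 arrays (limma 3.58.1, R 4.3.3), with Benjamini-Hochberg adjustment over 13494 genes and a threshold of 0.05. Groups came from the labels, which number the animals separately. Named genes were the members, the 3 genes most like each, and up to 4 genes per list with the smallest p. The members and lists were chosen with earlier results of these data known. Alternatives covered probe set choice, normalization, array weights, the fit's prior, the groups fitted, a dim-gene filter, replicate number, RNA quality, reference group and single arrays; 2 were added after seeing the data. The fit was tested on simulated data. All sample columns were used.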

Additional observations from a re-analysis of the deposited data

Results flagged for a closer look

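In 120 sets of 1 gene in 1 group, 16 held an animal far from its fellows. Chance alone flags about 1 in 20 such sets, and 6 of the 16 are on arrays that carry gullet keratins or go against their labels. On those 6, Chil4 was 11.26 and Mmp12 11.47 in naive 500 ng 6 h replicate 8, Chil4 was 6.67 and Chil3 12.32 in OVA 500 ng 6 h replicate 3, and Chil4 was 10.08 in naive buffer 24 h replicate 8 and 7.93 in naive 150 ng 6 h replicate 5.

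The other 10 are on arrays that passed both checks. In OVA 1500 ng 24 h replicate 1, Chil4 was 9.58, with the next animal at 13.09, and Mmp12 was 10.65, with the next at 12.07. In OVA 150 ng 6 h replicate 2, Chil4 was 10.92 and Chil3 13.63. OVA buffer 6 h replicate 3 had Chil4 at 8.73, with the next at 11.53. Among naive animals, Chil4 was 7.19 in 500 ng 24 h replicate 7 and 6.84 in saline 24 h replicate 3, Mmp12 was 10.63 in saline 24 h replicate 1, Alox15 was 9.70 in 1500 ng 24 h replicate 8, and Cdh1 was 12.02 in saline 6 h replicate 5.

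Of 36 tests of a difference between effects, 4 passed; with the beta-actin covariate 0 did (limma; 6 at an unadjusted p under 0.05). The effect of 1500 ng TSLP on Mrc1 at 6 h was 0.46 larger in OVA than in naive mice. The effect of that dose at 24 h minus its effect at 6 h was -0.53 for Mrc1 and -0.19 for Cdh1 in OVA mice, and -0.26 for Cdh1 in naive mice. With the covariate the Cdh1 value in OVA mice was 0.10.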

How the results depend on the processing

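Of 3882 values recomputed under alternatives, 3576 kept their direction and side of the threshold, 167 stayed uncalled but changed sign, 77 fell below the threshold, 55 rose above it and 7 called values changed sign. The OVA difference of Chil3, Chil4, Mmp12 and Mrc1 in the buffer groups passed under every alternative run. The Chil4 effect of 1500 ng in OVA mice at 24 h, on the threshold, was lost with the mean of probe sets (1.28), every probe set (1.28), a trended robust prior (1.28), the compared groups alone (1.28), the beta-actin covariate (1.28) and the replicate block (1.23), and was -0.0051 against saline. At that time Mmp12 passed with array weights (1.04) and Alox15 was lost against saline (0.34). At 6 h in OVA mice the beta-actin covariate gave 1.47 for Mmp12, 0.27 for Mrc1 and -0.0054 for Cdh1, and with the 8 doubtful arrays also left out 1.07, 0.26 and -0.0077; the cause was not tested. Mmp12 was lost against saline (0.65), and Chil4 passed without the 2 arrays of the antibody check (1.02). Cdh1 at 1500 ng in naive mice at 6 h was lost with the compared groups alone (0.22) and with the covariate (0.12). The Cdh1 difference of OVA from naive buffer mice at 6 h passed with quantile normalization (0.15), array weights (0.17), the covariate (0.20), without the gullet arrays (0.23) and with the last 2 and the antibody check together (0.30). With the covariate, and with the 8 arrays also left out, the time difference of the 1500 ng effect on Cdh1 in OVA mice was 0.10 and 0.10, and its dose slope at 6 h -0.038 and -0.024.

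Animals were left out in turn in 60 refits. In buffer mice at 6 h, Alox15 ranged from 0.68 to 1.49 and passed without OVA replicate 3, and Cdh1 ranged from 0.078 to 0.16 and passed without naive replicates 4 or 6 or OVA replicates 3 or 7. At 1500 ng in OVA mice at 24 h, Chil4 ranged from 0.93 to 1.83, its call lost without buffer replicates 2, 5, 6 or 7 or treated replicates 2, 3, 4, 5, 6 or 8, and Mmp12 ranged from 0.69 to 1.14, passing without buffer replicates 4 or 8 or treated replicate 1. At 6 h Chil4 ranged from 0.53 to 1.21, passing without buffer replicate 5, and Alox15 from 0.28 to 1.09, passing without buffer replicate 8. The correlation of same-numbered animals was over 0.1 in at most 4 of 8 pairs. Those were OVA buffer and 1500 ng animals at 6 h, where the highest value was 0.82. Replicate 7 carried gullet keratins in both of these groups and was kept in this check. The replicate block changed no call of a main comparison except Chil4 above. The share of genes called moved by over 1.5 times under some settings. At 1500 ng against buffer, 15.3% in naive mice at 6 h ranged from 0.148% to 42.8% over the other settings and from 5.98% to 25.3% with 1 animal left out (beyond 1.5 times without buffer replicates 2, 5 or 6). In OVA mice at 6 h, 60.7% ranged from 7.72% to 69.0%, and from 58.7% to 60.7% with 1 animal left out. In naive mice at 24 h, 0.978% ranged from 0.185% to 1.99%, and from 0.4% to 1.62% with 1 animal left out (beyond 1.5 times without buffer replicates 5, 7 or 8 or treated replicates 1, 4, 5 or 7). For OVA against naive buffer mice, 33.6% at 6 h ranged from 17.3% to 37.3%, and from 28.6% to 35% with 1 animal left out. At 24 h, 8.57% ranged from 5.77% to 17.3%, and from 4.3% without OVA replicate 8 (4.69% without replicate 4) to 10.2%. With the compared groups fitted alone, adjusted p also rose to 0.057 for Cdh1 at 150 ng and 0.118 at 1500 ng in naive mice at 6 h and to 0.114 for the Chil3 difference between times at 1500 ng in naive mice.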
